A study of Homo sapiens with 72 samples.

Results

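Cytosolic aminoacyl-tRNA synthetases were followed in U2OS, a human osteosarcoma cell line, by RNA-seq of whole wells. The members were named by symbol, as AARS1, GARS1, NARS1, SARS1, WARS1, EPRS1, CARS1, MARS1, IARS1 and YARS1, and matched to Ensembl gene identifiers, which gave 10 of the 60279 Ensembl genes listed in each file. All 10 passed the filter on low counts in every comparison. The series held 72 wells. Of these, 18 received only the solvent DMSO and 54 received 1 of 6 compounds for 12 h, with 3 wells for each compound at 100 nM, 1000 nM and 10000 nM. The compounds were triptolide, an inhibitor of transcription; homoharringtonine, an inhibitor of translation elongation; pyrazolanthrone (also called SP600125), an inhibitor of JNK kinases; nilotinib, an inhibitor of the BCR-ABL kinase; miglitol, an inhibitor of alpha-glucosidases of the gut; and MK-2206, an inhibitor of AKT kinases. For the middle dose the sample labels (1000 nM) and the study's methods differ, and the labels were followed.

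A cytosolic synthetase joins 1 amino acid to the tRNAs that carry it, and the charged tRNA then delivers that amino acid to the ribosome. The member genes encode the enzymes for alanine (AARS1), glycine (GARS1), asparagine (NARS1), serine (SARS1), tryptophan (WARS1), glutamate and proline together (EPRS1), cysteine (CARS1), methionine (MARS1), isoleucine (IARS1) and tyrosine (YARS1). EPRS1, MARS1 and IARS1 are subunits of the multi-synthetase complex, and the GARS1 protein also serves mitochondria. Many synthetase genes are targets of ATF4, a transcription factor whose translation increases when the initiation factor eIF2alpha is phosphorylated by kinases that sense amino acid shortage, unfolded proteins in the endoplasmic reticulum, viral RNA or haem shortage. ATF4 pairs with C/EBP proteins on the motif TGATGNAA.

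The motif, read on either strand as TGATGNAA or TTNCATCA, was searched in RefSeq promoter windows of GRCh38.p14 that run from 250 bases before to 50 bases after a gene's start. The tables held a window for 9 of the 10 members, all but YARS1. The motif lay in the windows of 6 of these 9 genes (66.7%), against 4.46% of 27305 genes with a window. The form TGATGCAA or TTGCATCA lay in 5 of 9 (55.6%), against 1.08% of genes. The members were chosen knowing that many of them are ATF4 targets, so these contrasts are a description and no independent test. Of the lists compared with the members, it lay in windows of 1 of 10 other cytosolic synthetase and scaffold genes (TARS1), 1 of 14 mitochondrial synthetase genes (YARS2) and 5 of 22 genes of an ATF4 pathway list. The member sites are shown because these genes differ in whether their window holds the motif, and those of CHAC1 and ASNS because both genes are known ATF4 targets used for comparison. Capitals mark the motif, each stretch is on the strand of its gene, and positions are on GRCh38.p14. No motif was found in the windows of SARS1, WARS1 and EPRS1. A match describes letters and not binding.
GARS1 (chr7:30594835-30594862, plus strand): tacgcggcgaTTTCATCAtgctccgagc
IARS1 (chr9:92293693-92293720, minus strand): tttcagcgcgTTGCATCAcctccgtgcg
CARS1 (chr11:3057408-3057435, minus strand): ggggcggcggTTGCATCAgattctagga
MARS1 (chr12:57488054-57488081, plus strand): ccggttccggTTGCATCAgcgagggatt
AARS1 (chr16:70289676-70289703, minus strand): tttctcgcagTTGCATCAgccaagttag
NARS1 (chr18:57621805-57621832, minus strand): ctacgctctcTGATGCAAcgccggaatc
TARS1 (chr5:33440957-33440984, plus strand): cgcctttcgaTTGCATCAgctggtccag
CHAC1 (chr15:40953252-40953279, plus strand): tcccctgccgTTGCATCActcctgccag
ASNS (chr7:97872459-97872486, minus strand): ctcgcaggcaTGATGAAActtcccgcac

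Counted from the RefSeq start of the window that holds it, the motif began 2, 4, 13 and 33 bases before the start in CARS1, MARS1, IARS1 and GARS1 and 187 bases before it in AARS1, and in NARS1 its first base was base 15 after the start. GENCODE spans of a gene cover all of its listed transcripts and can begin upstream of that RefSeq start, so these 6 sites lie inside the spans given here. The spans are chr16:70251983-70289707 (AARS1, minus strand), chr7:30580533-30634033 (GARS1, plus), chr18:57600656-57622213 (NARS1, minus), chr1:109213918-109238182 (SARS1, plus) and chr14:100333790-100376805 (WARS1, minus). EPRS1 lies at chr1:219968600-220046530 (minus), CARS1 at chr11:3000922-3057613 (minus), MARS1 at chr12:57475445-57517569 (plus), IARS1 at chr9:92210207-92293854 (minus) and YARS1 at chr1:32775237-32818031 (minus), all in GENCODE release 44 on GRCh38. The MARS1 locus shares 982 bases with DDIT3, which is on the opposite strand, and DDIT3 had a median of 9.45 counts per mil (CPM) in DMSO against 404 CPM for MARS1. The strand setting of the counting is not given in the sources used here, so reads of such overlapping genes could not be told apart. The listed processed or duplicated pseudogenes of the members had 0 CPM in every DMSO well.

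Total counts per well ranged from 70767 to 68296309 with a median of 38.4 mil, and 3 libraries lay under 10 mil: triptolide 100 nM well 2, triptolide 1000 nM well 1 and DMSO well 10. The cells carried the mesenchymal genes VIM, SPARC and COL1A1 at medians of 1920, 2109 and 412 transcripts per mil (TPM), RUNX2, a transcription factor of bone, was low (median 3.32 TPM) and COL1A2 was near 0 (0.07 TPM). Of 7 markers of other cell types, CD3E of T cells, ALB of liver and TYR of pigment cells had medians of 0 TPM, PTPRC of blood cells, PECAM1 of endothelium and GFAP of astrocytes had medians of 0.06, 0.095 and 0.25 TPM, and EPCAM of epithelia had 2.49 TPM (0 to 6.99). The labels do not say whether wells of a group were separate cultures, so p-values measure only the spread between wells. In such bulk samples fewer cells and less RNA per cell cannot be told apart, and every value here is relative to the rest of its library.

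In DMSO wells all 10 synthetase mRNAs were abundant, and on the TPM scale, which corrects for transcript length, their medians spanned 4.72-fold. GARS1 was the highest, with a median of 424 TPM (299 to 516), and exceeded MARS1 within each of the 18 wells. MARS1 (median 285 TPM, 185 to 317), SARS1 (255, 216 to 279) and YARS1 (191, 159 to 289) followed. WARS1 stood at 148 TPM (129 to 164), below YARS1 in all 18 wells. CARS1 was the lowest, at 89.7 TPM (76.6 to 102), below AARS1 in 17 of 18 wells. Between these, IARS1 (118 TPM, 85.4 to 201), EPRS1 (115, 34.9 to 141), NARS1 (112, 96.4 to 182) and AARS1 (112, 90.1 to 128) overlapped widely. IARS1 exceeded EPRS1 in 13 of 18 wells, EPRS1 exceeded NARS1 in 12 and NARS1 exceeded AARS1 in 10. The order of these 4 neighbours thus did not exceed the spread between wells. On the TPM scale the shallow DMSO well 10 gave the low ends of GARS1, MARS1 and EPRS1. It also gave the high ends of YARS1, NARS1 and CARS1.

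**Figure D1:**
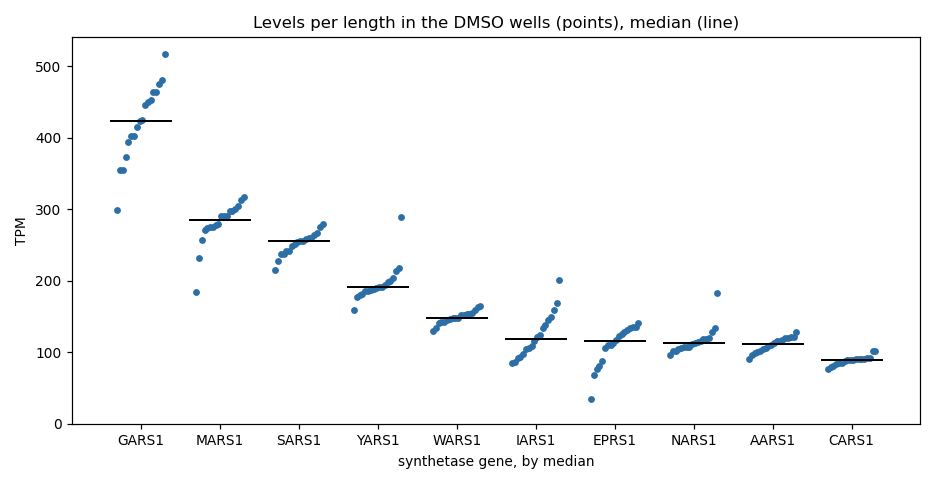
TPM of each member in the 18 DMSO wells (points; the line is the median), ordered by median. GARS1 lies highest and CARS1 lowest, and IARS1, EPRS1, NARS1 and AARS1 overlap between medians of 112 and 118 TPM.

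The members differed in how steady they were among DMSO wells. YARS1 and WARS1 varied least, with the highest well 1.34-fold above the lowest in CPM, and EPRS1 varied most, from 102 to 374 CPM. The low end for AARS1, GARS1, SARS1, EPRS1, MARS1 and IARS1 was DMSO well 10, the shallow one. Among the other 17 DMSO wells, EPRS1, IARS1, NARS1 and GARS1 moved with the fragment length of the library, a value inferred from the effective gene lengths in the files. In the 5 wells of longest fragments (200.5 to 217.3 bases) the median CPM was 1.81 times that of the 5 of shortest fragments (143.8 to 178.6 bases) for EPRS1, 1.62 times for IARS1, 1.41 times for NARS1 and 1.40 times for GARS1. The ratio was 0.877 for AARS1, 0.879 for CARS1, 0.904 for MARS1, 0.962 for WARS1, 0.971 for SARS1 and 1.05 for YARS1. The GC slope of a library, the change in log2(CPM + 1) per 10 points of gene GC content, differed too. It was -0.259 to 0.123 in the 5 wells of longest fragments and 0.034 to 0.421 in the 5 of shortest. Well 9 had the shortest fragments and the slope of 0.034, with EPRS1 at 244 CPM. EPRS1, IARS1, NARS1 and GARS1 had the lowest GC content of the members (41.1% to 45.4%). Which library property they moved with was not tested. A fit with fragment length as a covariate, added after seeing the data, is given below for these 4 genes where it changed a call.

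**Figure D2:**
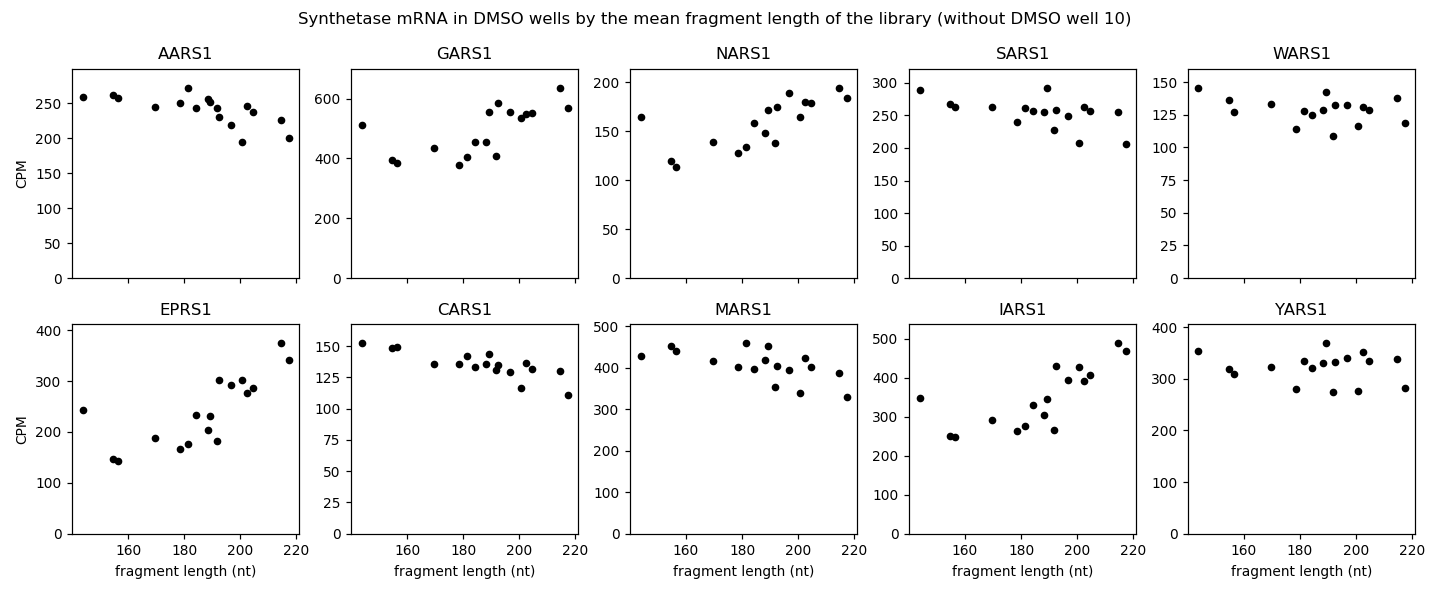
CPM of the members (linear axis) against the inferred fragment length in bases for the 17 DMSO wells other than the shallow well 10. EPRS1, IARS1, NARS1 and GARS1 are higher at long fragments, and AARS1 and CARS1 are lower there.

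The same 18 DMSO wells served as controls for every compound and dose, so the comparisons share them. CPM values below are scaled by TMM, which assumes that most genes do not change, and log2 fold changes, standard errors (SE) and Benjamini-Hochberg adjusted p-values come from edgeR's quasi-likelihood test over all genes that passed the filter on low counts, with 0.05 as the threshold.

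**Figure D3:**
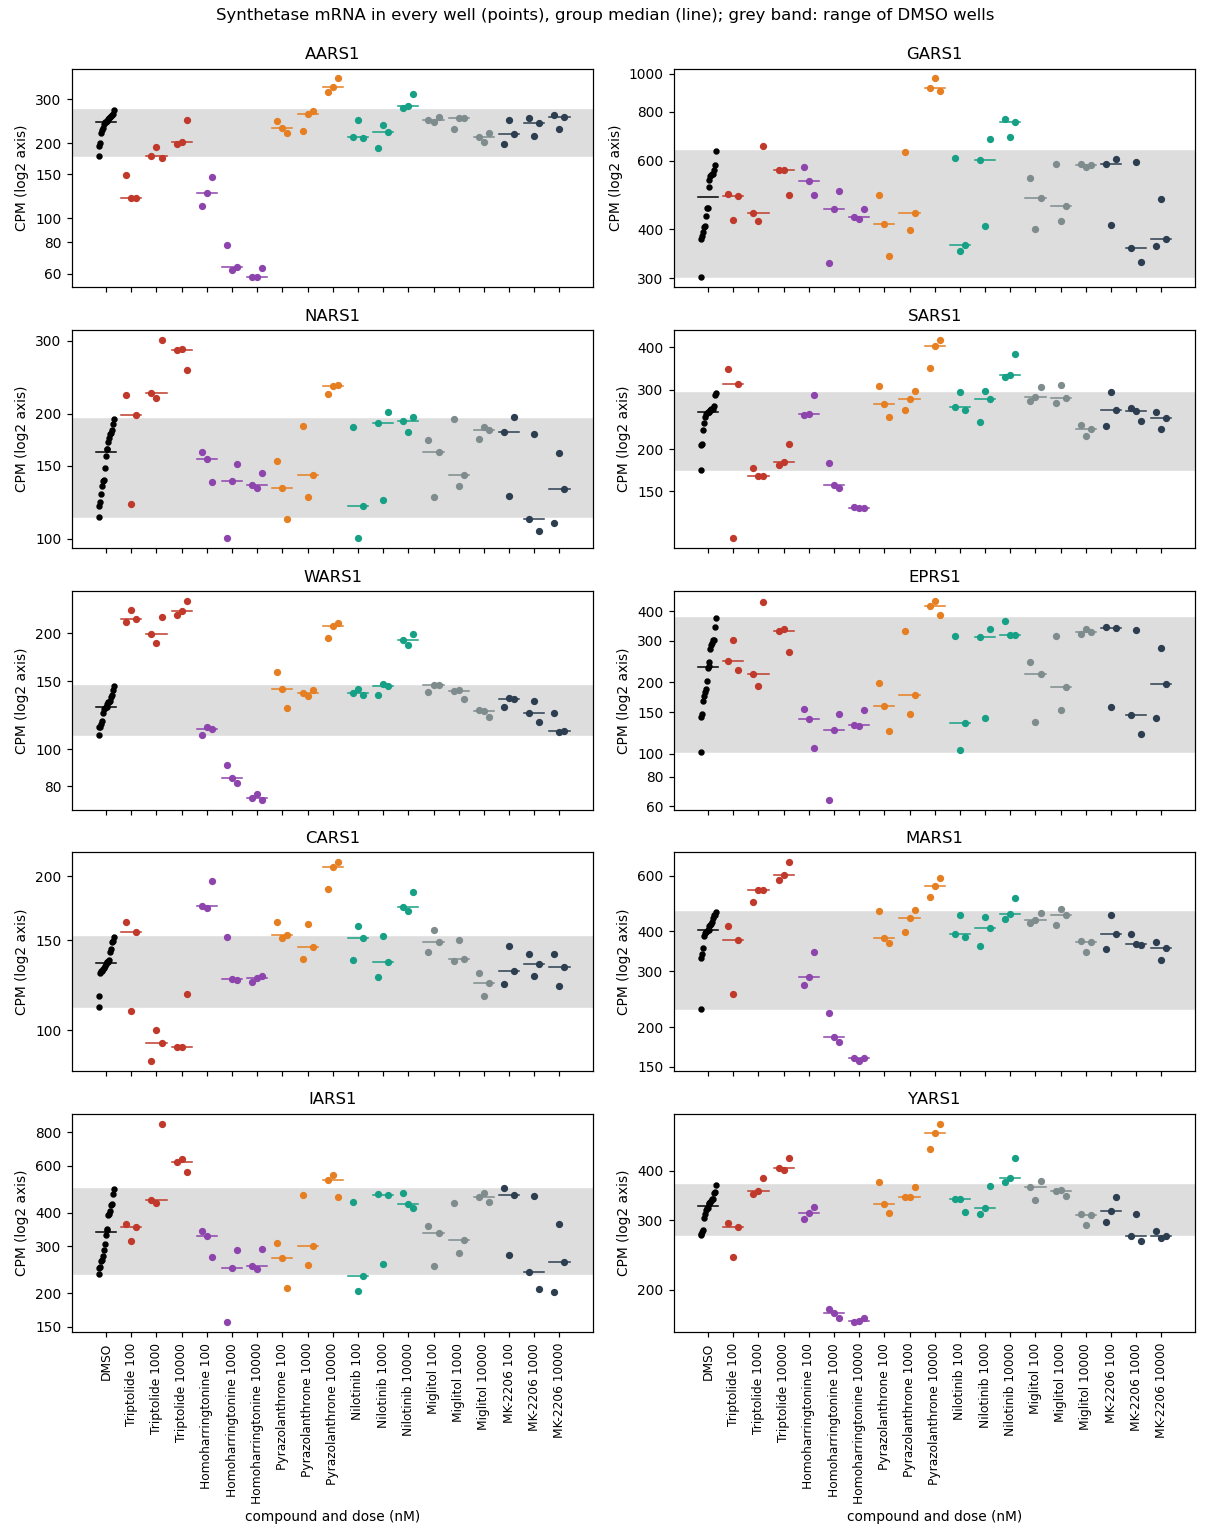
CPM of each member (log2 axis) in all 72 wells by compound and dose in nM; points are wells, lines are group medians and the grey band is the range of the 18 DMSO wells. The wells of pyrazolanthrone at 10000 nM lie above the band for 9 members, and those of homoharringtonine at 10000 nM lie below it for AARS1, SARS1, WARS1, MARS1 and YARS1.

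Pyrazolanthrone at 10000 nM was followed by a rise of all 10 synthetase mRNAs, while 3.29% of the genes tested rose. The median log2 fold change of the members was 0.55, from 0.42 (MARS1) to 0.90 (GARS1), against a median of -0.02 over all genes tested, and no member reached 2-fold. In 9 of 10 members every treated well lay above every DMSO well, which held for 3.48% of genes tested.

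GARS1 changed most. Its wells measured 921, 974 and 905 CPM, against 302 to 636 with a median of 484 in DMSO. The groups did not overlap, and the log2 fold change was 0.90 (SE 0.128, edgeR adjusted p = 5.32e-05). EPRS1, which joins both glutamate and proline to their tRNAs, measured 421, 442 and 384 CPM against 102 to 374 in DMSO. All 3 wells were above the DMSO range, the lowest of them narrowly, and the log2 fold change was 0.78 (SE 0.222, edgeR adjusted p = 0.0310).

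WARS1 measured 194, 209 and 213 CPM, against 109 to 146 with a median of 129 in DMSO, a log2 fold change of 0.63 (SE 0.0710, edgeR adjusted p = 2.59e-06). The separation from DMSO was wide relative to the spread within either group. SARS1 measured 347, 403 and 421 CPM (DMSO 174 to 293, median 257) and YARS1 453, 499 and 526 CPM (DMSO 275 to 369, median 326). Neither gene overlapped with DMSO, and their log2 fold changes were 0.59 (SE 0.0970, edgeR adjusted p = 0.000297) and 0.57 (SE 0.0750, edgeR adjusted p = 2.13e-05). CARS1 measured 189, 208 and 213 CPM (DMSO 111 to 152, median 135), also without overlap, with a log2 fold change of 0.54 (SE 0.0798, edgeR adjusted p = 9.24e-05).

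NARS1 was at 224, 234 and 235 CPM (DMSO 113 to 194, median 162), AARS1 at 321, 336 and 363 (DMSO 177 to 272, median 244) and MARS1 at 514, 554 and 588 (DMSO 228 to 459, median 404), each above every DMSO well. Their log2 fold changes were 0.52 (edgeR adjusted p = 0.00717), 0.46 (0.00286) and 0.42 (0.0267). IARS1 was the member that overlapped with DMSO: its wells at 528 and 554 CPM were above the DMSO range of 235 to 489 and the one at 457 was within it, with a log2 fold change of 0.53 (SE 0.164, edgeR adjusted p = 0.0467). When any 1 of the 3 treated wells was left out, 6 or 7 members passed, and AARS1, CARS1, GARS1, SARS1, WARS1 and YARS1 passed in all 3 of these fits. Scaling to the 13 mitochondrially encoded mRNAs in place of TMM shifted the median of all genes by -0.36 (log2). Under it no member passed, at 0.04 (MARS1) to 0.58 (GARS1). The share of counts from these mRNAs was 0.278% to 0.321% in the treated wells and 0.138% to 0.367% in DMSO.

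Other synthetase genes were measured in the same wells. As the members were chosen knowing that many are ATF4 targets, their contrast with these genes is a description. Of 14 genes for the remaining cytosolic synthetases and the scaffold proteins of the multi-synthetase complex, TARS1, the threonine enzyme, rose. It measured 458, 481 and 431 CPM against 249 to 428 in DMSO (log2 fold change 0.45, edgeR adjusted p = 0.0156). The other 13 did not pass, between -0.38 (FARSA) and 0.53 (AIMP1), and the median of the list was 0.19. Of 17 mitochondrial synthetase genes none rose, AARS2 (-0.44) and CARS2 (-0.40) fell, and the median was 0.09. The genes for the 4 kinases of eIF2alpha did not pass (median 0.17), nor did the elongation factor genes EEF1A1, EEF1B2, EEF1G and EEF2 (median 0.16).

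In the ATF4 pathway list, 23 of 27 genes rose, with a median log2 fold change of 0.91. ASNS, which makes asparagine, measured 484, 482 and 382 CPM against 61.5 to 214 in DMSO and rose by 1.65 on the log2 scale. SLC7A11, a subunit of the cystine transporter, rose by 1.33 (340, 282 and 258 CPM against 76.5 to 186). No treated well of either gene reached down to the DMSO range. CHAC1, an enzyme that degrades glutathione, rose by 1.23, TRIB3, a pseudokinase, by 1.23, PSAT1 of serine synthesis by 1.13 and SESN2, a regulator of mTORC1, by 0.93. ATF4 itself rose by 0.54, with 882, 988 and 1038 CPM against 485 to 743 in DMSO, and DDIT3, a transcription factor of the same response, by 0.48. XPOT, which exports tRNA from the nucleus, was 0.48 higher and did not pass (edgeR adjusted p = 0.358).

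**Figure D4:**
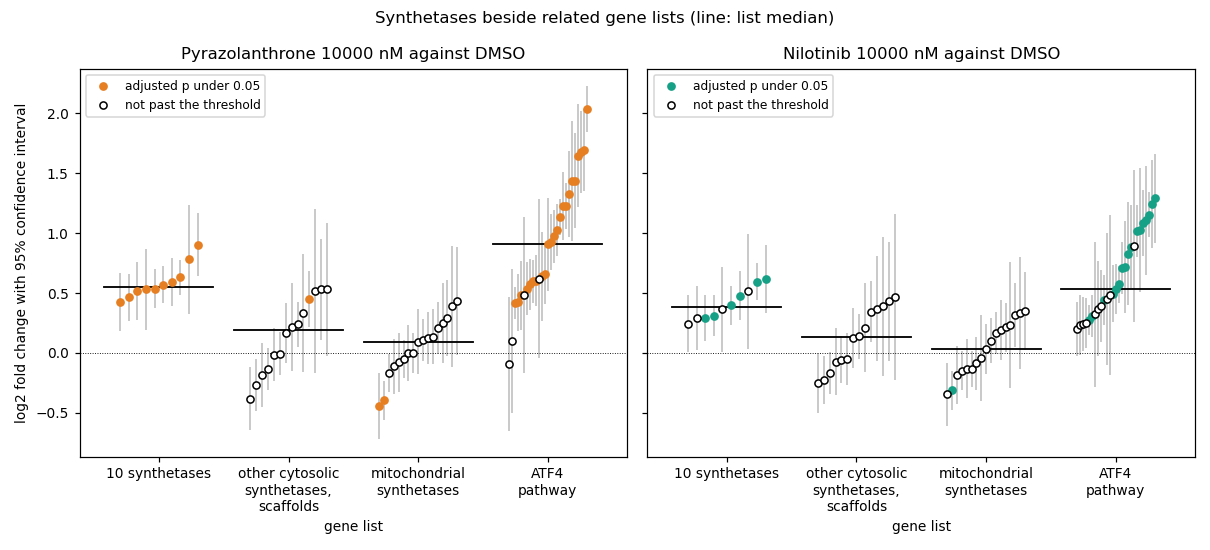
Log2 fold changes against DMSO with 95% confidence intervals for pyrazolanthrone and nilotinib at 10000 nM, for the 10 members and for the genes of the other lists named in the text. The members lie between 0.42 and 0.90 for pyrazolanthrone and between 0.24 and 0.62 for nilotinib, with ASNS above them in both.

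At 100 nM pyrazolanthrone, no member passed in edgeR and 1 did by DESeq2 (CARS1), while 4.84% of genes passed in either direction. An unadjusted edgeR p under 0.05 was found for 2 members, beside 4233 of 18375 genes tested. The log2 fold changes ran from -0.51 (EPRS1) to 0.24 (CARS1), with 95% intervals between -1.04 and 0.41. At 1000 nM no member passed in edgeR or DESeq2, none had an unadjusted p under 0.05, and 0% of genes passed, with intervals from -0.68 to 0.43. Over the 9 treated wells, 7 members rose with dose, where 9.19% of genes did: EPRS1 by 0.64 per 10-fold dose (log2), GARS1 by 0.54, IARS1 by 0.44, NARS1 by 0.36, AARS1 by 0.24, YARS1 by 0.23 and WARS1 by 0.22. The wells at 100 nM had fragments of 150.6 to 154.8 bases and those at 10000 nM of 180.8 to 202.1, and with fragment length as a covariate no member passed the trend. In that fit the slopes were 0.48 for EPRS1 (edgeR adjusted p = 0.515), 0.53 for GARS1 (0.339), 0.26 for IARS1 (0.640) and 0.32 for NARS1 (0.510). Without well 2, or without well 3, of each dose no member passed the trend either, and without well 1 of each dose all 10 did.

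Nilotinib at 10000 nM was followed by a rise of 6 members, GARS1, WARS1, SARS1, CARS1, YARS1 and AARS1, while 8.04% of genes tested rose. All 3 wells lay above every DMSO well for these 6 members and for none of the other 4; this held for 5.54% of genes. The median of all 10 log2 fold changes was 0.38 against 0.01 over all genes, and none reached 2-fold.

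GARS1 measured 767, 690 and 754 CPM, a log2 fold change of 0.62 (SE 0.138, edgeR adjusted p = 0.00310). WARS1 measured 193, 187 and 199 CPM, a log2 fold change of 0.60 (SE 0.0740, edgeR adjusted p = 2.77e-06). Both stood clear of the DMSO wells, whose highest values were 636 and 146 CPM. SARS1 measured 326, 332 and 382 CPM (log2 fold change 0.48, edgeR adjusted p = 0.00147) and CARS1 174, 171 and 186 CPM (0.40, edgeR adjusted p = 0.00112). YARS1 at 374, 384 and 432 CPM (0.31, edgeR adjusted p = 0.0127) and AARS1 at 277, 281 and 314 CPM (0.29, edgeR adjusted p = 0.0345) were only just above the highest DMSO wells, at 369 and 272 CPM.

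EPRS1 (363, 317 and 319 CPM) and IARS1 (474, 430 and 416 CPM) lay in the upper part of the DMSO range, while NARS1 (192, 181 and 197 CPM) and MARS1 (439, 455 and 511 CPM) each had 1 well above it. Their log2 fold changes of 0.51, 0.36, 0.29 and 0.24 did not pass, with edgeR adjusted p of 0.153, 0.169, 0.149 and 0.176. With fragment length as a covariate EPRS1 (0.53, edgeR adjusted p = 0.0410) and IARS1 (0.37, 0.0486) passed. With each treated well left out in turn 4 or 5 members passed, and CARS1, GARS1, SARS1 and WARS1 did so in all 3 fits. Under the mitochondrial mRNA scaling, which shifted the median of all genes by -0.69, no member passed. The values of all 6 members that rose turned negative, between -0.43 (AARS1) and -0.05 (GARS1). The treated wells held 0.350% to 0.388% of counts in these mRNAs.

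In the ATF4 pathway list 17 of 27 genes rose under nilotinib at 10000 nM, with a median of 0.54. TRIB3 rose by 1.15, ASNS by 1.11 (326, 292 and 275 CPM), DDIT3 by 1.08, SESN2 by 1.02, SLC7A11 by 0.72 and PSAT1 by 0.57. ATF4 (0.24, edgeR adjusted p = 0.151), CHAC1 (0.39, edgeR adjusted p = 0.0773) and XPOT (0.89, edgeR adjusted p = 0.0540) did not pass. None of the 14 other cytosolic synthetase and scaffold genes passed (median 0.13), and of the 17 mitochondrial ones none rose and 1 fell (median 0.03). At 100 nM and 1000 nM nilotinib no member passed in edgeR or DESeq2 and none had an unadjusted p under 0.05, where 9.17% and 4.15% of genes passed, and the intervals ran from -0.97 to 0.34 and from -0.41 to 0.69. No member passed the dose trend of nilotinib in edgeR, where 3.19% of genes passed, and 2 did by DESeq2. An unadjusted edgeR p under 0.05 was found for 5 members, beside 4578 of 17710 genes tested. The estimates were 0.09 (MARS1) to 0.43 (EPRS1) per 10-fold dose.

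**Figure D5:**
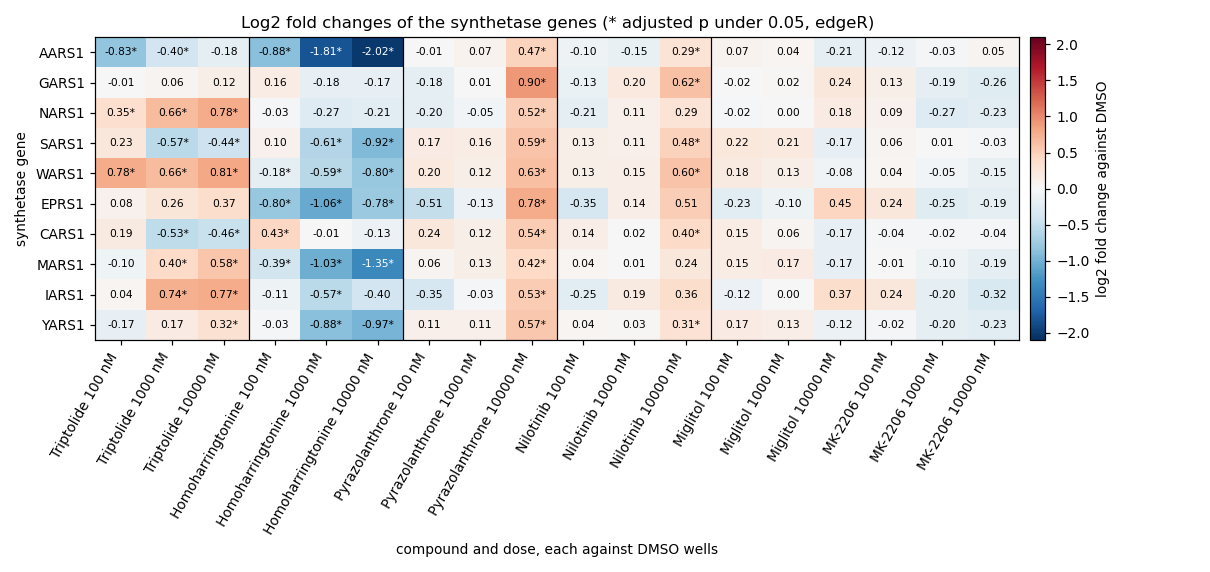
Log2 fold change of each member against DMSO for every compound and dose in nM, with a star where edgeR's adjusted p was under 0.05. Homoharringtonine holds the lowest values (AARS1, -2.02 at 10000 nM), and the column of pyrazolanthrone at 10000 nM has a star for all 10 members.

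Homoharringtonine at 10000 nM lowered 6 members, AARS1, MARS1, YARS1, SARS1, WARS1 and EPRS1, in a comparison in which 37.3% of genes tested fell and 37% rose. The median log2 fold change of the members was -0.79 against -0.04 over all genes, and no member rose. For 5 members every treated well lay below every DMSO well, which held for 19% of genes.

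AARS1, the alanine enzyme, changed most. It measured 112, 127 and 146 CPM at 100 nM, 78.4, 61.7 and 64.0 CPM at 1000 nM, and 58.1, 58.1 and 63.0 CPM at 10000 nM, against 177 to 272 in DMSO. All 9 wells lay below every DMSO well, and the 3 doses did not overlap except for the pair of higher doses. Its log2 fold changes were -0.88 (SE 0.114, edgeR adjusted p = 3.13e-07), -1.81 (SE 0.124, 3.96e-12) and -2.02 (SE 0.110, 3.76e-14), so that 24.7% of the DMSO level remained at 10000 nM.

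MARS1, the methionine enzyme that also charges the initiator tRNA, measured 160, 157 and 160 CPM at 10000 nM against 228 to 459 in DMSO (log2 fold change -1.35, SE 0.129, edgeR adjusted p = 1.33e-09). At 1000 nM it was at 221, 186 and 179 CPM (-1.03) and at 100 nM at 272, 288 and 344 CPM (-0.39, edgeR adjusted p = 0.0118). At the 2 higher doses all wells were below the DMSO range, and at 100 nM all were within it. The low end of that range was the shallow DMSO well 10, and the next lowest DMSO well was at 331 CPM.

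YARS1 showed no difference that passed at 100 nM (301, 313 and 323 CPM; log2 fold change -0.03, 95% interval -0.19 to 0.14) and lay at 178, 175 and 170 CPM at 1000 nM and 166, 166 and 169 CPM at 10000 nM, where it fell by 0.88 and 0.97. SARS1 likewise did not pass at 100 nM (0.10) and fell by 0.61 and 0.92 at the higher doses, to 135, 134 and 134 CPM. WARS1 fell by 0.18, 0.59 and 0.80, to 74.5, 76.6 and 73.9 CPM at 10000 nM. The wells of these 3 members at 10000 nM lay within a few CPM of each other and outside the DMSO range.

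EPRS1 fell by 0.80, 1.06 and 0.78 at the 3 doses, and its 132, 131 and 152 CPM at 10000 nM were inside the broad DMSO range. The low end of that range was the shallow DMSO well 10, and the next lowest DMSO well was at 143 CPM. IARS1 fell at 1000 nM by 0.57 and did not pass at 10000 nM (-0.40, edgeR adjusted p = 0.0531). GARS1 (430, 425 and 452 CPM at 10000 nM; log2 fold change -0.17, 95% interval -0.48 to 0.13) and NARS1 (135, 132 and 144 CPM; -0.21, -0.49 to 0.07) passed at no dose. With fragment length as a covariate IARS1 passed at 10000 nM (-0.54, edgeR adjusted p = 0.00205), as did NARS1 at 1000 nM (-0.35, 0.00474) and 10000 nM (-0.31, 0.0197). CARS1, the cysteine enzyme, was the exception in direction: it rose at 100 nM (175, 173 and 196 CPM, all above the highest DMSO well at 152; log2 fold change 0.43, SE 0.0826, edgeR adjusted p = 6.45e-05) and was within the DMSO range at 10000 nM (124, 126 and 128 CPM; -0.13, 95% interval -0.29 to 0.04). At 100 nM 4 members fell and 1 rose, where 32.5% of genes fell and 31.3% rose, and at 1000 nM 7 fell, where 33.6% did. At 100 nM 3 members passed whichever well was left out, AARS1 and CARS1 in all 3 of these fits, and under the mitochondrial mRNA scaling 2 passed.

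Over the 9 homoharringtonine wells 6 members fell with dose, where 22.9% of genes did: AARS1 by 0.58 per 10-fold dose (log2), SARS1 by 0.52, MARS1 by 0.49, YARS1 by 0.48, WARS1 by 0.32 and CARS1 by 0.29. EPRS1 had no slope that passed (-0.01, 95% interval -0.30 to 0.29). Of the remaining cytosolic genes 10 of 14 rose and 3 fell at 10000 nM, with a median log2 fold change of 0.30; AIMP1, a scaffold protein, rose by 1.19 and RARS1, the arginine enzyme, by 1.17, while VARS1, the valine enzyme, fell by 0.64. Of the mitochondrial ones 9 of 17 rose and 5 fell, and RARS2, the mitochondrial arginine enzyme, rose by 1.91.

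Of the ATF4 pathway list, 6 of 27 genes rose and 17 fell at 10000 nM homoharringtonine. The transcription factor ATF3 had the highest log2 fold change, 5.21. ATF4 mRNA measured 1799, 1821 and 1649 CPM against 485 to 743 in DMSO and rose by 1.42, and DDIT3 rose by 2.87, from a DMSO median of 9.45 to 73.5, 72.1 and 69.6 CPM. SLC7A11 fell by 3.39 (10.6, 9.84 and 12.5 CPM), CHAC1 by 3.28, PSAT1 by 2.62, TRIB3 by 2.53 and SESN2 by 1.07. ASNS (-0.06, edgeR adjusted p = 0.825) and XPOT (-0.34, edgeR adjusted p = 0.370) did not pass. DDIT3 rose and MARS1 fell in the same wells, though the loci overlap.

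Triptolide moved the members in both directions. At 10000 nM WARS1, NARS1, IARS1, MARS1 and YARS1 rose and CARS1 and SARS1 fell, in a comparison in which 32.4% of genes tested rose and 39.7% fell. For these 5 that rose, every well lay above every DMSO well, which held for 24.9% of genes. The median log2 fold change of the members was 0.35 against -0.16 over all genes. These values are shares of a changed library: mitochondrially encoded mRNAs took 1.01% to 1.15% of counts against 0.138% to 0.367% in DMSO. Scaled to them, the median of all genes shifted by -2.76 (log2). All 10 members were then lower than DMSO, between -3.26 (CARS1) and -1.95 (IARS1). With library sizes alone (shift of the median -0.54) YARS1 and GARS1 turned negative, at -0.22 and -0.41.

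WARS1 was higher at every dose. It measured 214, 230 and 218 CPM at 100 nM, 199, 189 and 221 at 1000 nM, and 223, 229 and 243 at 10000 nM, against 109 to 146 in DMSO. All 9 wells were above every DMSO well, and the log2 fold changes were 0.78, 0.66 and 0.81 (SE 0.0726 and edgeR adjusted p = 3.13e-10 at 10000 nM). NARS1 rose by 0.35, 0.66 and 0.78 at the 3 doses, with 286, 287 and 255 CPM at 10000 nM against a DMSO median of 162. At 100 nM its wells measured 222, 121 and 199 CPM, and the shallow well 2 was inside the DMSO range. There it passed in 1 of the 3 fits that left out a treated well. MARS1 rose at the higher doses, by 0.40 and 0.58 (582, 603 and 661 CPM at 10000 nM).

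IARS1 rose by 0.74 at 1000 nM, where 1 well at 860 CPM stood far above the others at 444 and 434. These others lay inside the DMSO range of 235 to 489 CPM. At this dose IARS1 passed in 2 of the 3 fits that left out a treated well. At 10000 nM IARS1 rose by 0.77 (617, 632 and 568 CPM). YARS1 passed at 10000 nM only (407, 402 and 431 CPM; log2 fold change 0.32, edgeR adjusted p = 0.00101). CARS1 fell by 0.53 at 1000 nM (87.1, 99.9 and 94.5 CPM, all below the DMSO range) and by 0.46 at 10000 nM (92.8, 92.8 and 118 CPM, 2 of 3 below it). SARS1 fell by 0.57 and 0.44 at these doses.

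AARS1 was lowest at the lowest dose of triptolide. It measured 149, 121 and 120 CPM at 100 nM, 178, 193 and 174 at 1000 nM, and 198, 202 and 248 at 10000 nM. At 100 nM all wells lay below the DMSO range of 177 to 272, and at 10000 nM all lay within it. AARS1 fell by 0.83 (edgeR adjusted p = 4.96e-06) and 0.40 at the lower doses and did not pass at 10000 nM (-0.18, 95% interval -0.40 to 0.03). GARS1 (-0.01, 0.06 and 0.12) and EPRS1 (0.08, 0.26 and 0.37) passed at no dose. At 100 nM 2 members rose and 1 fell, where 24.4% of genes rose and 32.4% fell, and at 1000 nM 4 rose and 3 fell, where 28.8% and 38.7% did.

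One triptolide well at 100 nM held 70767 counts in all, and without the libraries under 10 mil 5 members passed at 100 nM, with SARS1 (0.39) and CARS1 (0.25) added. Across the triptolide doses AARS1 (0.26 per 10-fold dose, log2) and MARS1 (0.28) rose and SARS1 (-0.37) and CARS1 (-0.36) fell, where 7.09% and 18.1% of genes did. None of the 4 passed in all 3 fits that left out 1 well of each dose, and without well 1 no member did. Under the mitochondrial mRNA scaling the slopes of AARS1 and MARS1 were negative, at -0.25 and -0.25. In the ATF4 pathway list at 10000 nM 9 of 27 genes rose and 14 fell. CHAC1 fell by 7.82, to 0.238, 0.0728 and 0.199 CPM from a DMSO median of 39.0. SESN2 fell by 6.40, TRIB3 fell by 5.24, DDIT3 fell by 3.71 and ATF4 fell by 1.54 (242, 218 and 225 CPM), while PSAT1 rose by 0.58 and ASNS (0.07), SLC7A11 (-0.16) and XPOT (0.07) did not pass. In the same wells the members lay between -0.46 and 0.81.

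Set directly against homoharringtonine, triptolide had 9 members higher and CARS1 lower at 10000 nM, where 41.4% of genes were higher and 47% lower. The differences were largest for MARS1 (2.02 log2, SE 0.0680; 582, 603 and 661 CPM against 160, 157 and 160), AARS1 (1.93, SE 0.0927) and WARS1 (1.70, SE 0.0667). CARS1 was 0.25 lower (edgeR adjusted p = 0.0271). At 1000 nM 7 members were higher and CARS1 lower, where 27.9% and 39% of genes were. At both of these doses CARS1 passed in 1 of the 3 fits that left out 1 well of each compound. Without the libraries under 10 mil CARS1 did not pass at 1000 nM (-0.49, edgeR adjusted p = 0.0736). At 100 nM WARS1 (1.03), EPRS1 (0.94) and NARS1 (0.47) were higher, where 29.9% of genes were. There NARS1 passed in 0 of the 3 fits that left out 1 well of each compound. The slope over dose of triptolide was above that of homoharringtonine for 6 members, AARS1, MARS1, YARS1, IARS1, WARS1 and NARS1, where 19.2% of genes were higher by the same test. When 1 well of each dose was left out 3 or 4 members passed, AARS1, MARS1 and YARS1 in all 3 of these fits. Under the mitochondrial mRNA scaling no member passed this test, and the differences of NARS1 (-0.17), WARS1 (-0.19) and IARS1 (-0.02) turned negative. With fragment length as a covariate GARS1 was also higher at 1000 nM (0.40, edgeR adjusted p = 0.0198). Under the mitochondrial mRNA scaling each of the members that were higher at 10000 nM was lower instead.

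Against all 18 DMSO wells, miglitol moved no member past the threshold in edgeR or DESeq2 at any dose, where 0% of genes passed. Against DMSO wells 1 to 3 alone, with or without the replicate block, 8 members passed at 10000 nM. The share of all genes that passed in these fits is not given here. In the fit without the block EPRS1 (0.77), IARS1 (0.62), GARS1 (0.43) and NARS1 (0.34) were higher and AARS1 (-0.35), MARS1 (-0.32), SARS1 (-0.25) and CARS1 (-0.25) lower. Members with an unadjusted edgeR p under 0.05 numbered 2, 0 and 2 at 100 nM, 1000 nM and 10000 nM. Of all genes tested, 987 of 18443, 1568 of 18413 and 4234 of 18466 did so at these doses. The 95% intervals of the log2 fold changes ran from -0.76 to 0.42, from -0.64 to 0.44 and from -0.41 to 0.93. Over the miglitol doses SARS1 fell by 0.19 on the log2 scale per 10-fold dose (edgeR adjusted p = 0.0470), where 3.34% of genes fell. By DESeq2 8 members passed in 1 or the other direction, and the share of all genes that did is not given here. An unadjusted edgeR p under 0.05 in this trend was found for 8 members, beside 6971 of 17716 genes tested. Without well 1, well 2 or well 3 of each dose no member passed in edgeR.

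MK-2206 also moved no member past the threshold in edgeR or DESeq2, with 0, 1 and 1 members at an unadjusted p under 0.05 at the 3 doses. In the same comparisons 0.092%, 1.45% and 3.18% of genes passed. An unadjusted edgeR p under 0.05 was found for 1378 of 18477, 2021 of 18462 and 2349 of 18522 genes tested. The intervals ran from -0.34 to 0.77, from -0.84 to 0.34 and from -0.73 to 0.35. No member passed the dose trend of MK-2206 in edgeR or DESeq2, none had an unadjusted p under 0.05, and 0.028% of genes passed, with slopes between -0.28 (IARS1) and 0.09 (AARS1).

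The members did not share 1 pattern over the 19 groups. Pearson's r between the group medians of pairs of members, on a log2(CPM + 1) scale, ranged from -0.20 (CARS1 and NARS1) to 0.94 (IARS1 and NARS1), as a description over points that share the DMSO scaling and library properties such as fragment length. IARS1, NARS1, EPRS1 and GARS1 differed most between DMSO wells of long and short fragments, whose GC slopes differed too. The search for genes of like pattern held 9374 protein-coding genes with a mean of at least 10 CPM. For the mean of the members, the members and all genes of the lists, the ATF4 pathway included, were left out. Most like that mean were PRNP (r = 0.91), HSPA5 (0.91), GSTO2 (0.90), SLC38A1 (0.89) and TXNRD1 (0.89). For a single member only that member was left out. The gene most like each member was RCCD1 for AARS1 (0.97), ASNS for GARS1 (0.93), ATXN10 for NARS1 (0.95), GRB10 for SARS1 (0.93), SHMT2 for WARS1 (0.97), SEL1L for EPRS1 (0.94), SH2B3 for CARS1 (0.85), MMP3 for MARS1 (0.96), EIF2S3 for IARS1 (0.97) and MARS1 for YARS1 (0.94), each over 19 group medians.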

How the data were processed

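The authors prepared TruSeq libraries from cells grown in 24-well plates and ran RSEM, with GRCh38 named in the submitters' processing notes; versions are not given in the sources used here. Expected counts, as deposited by the authors, are estimates of reads per gene without normalization, here rounded to whole numbers. For TPM, the authors' run divided by gene length and set 1 sum for every library. FPKM values, also deposited, were not used. The 92 ERCC spike-in rows (0.0158% to 1.12% of counts) were left out of library sizes and tests. No pair of libraries held identical values.

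Tests used edgeR 4.0.16 in R 4.3.3 (glmQLFit and glmQLFTest after TMM scaling and filterByExpr, smallest count 10), adjusting p-values by Benjamini-Hochberg over all genes tested. The 28 comparisons were 18 against DMSO, 6 linear trends on log10 dose over treated wells, 3 of triptolide against homoharringtonine, and the difference of their trends. Intervals are 95% and come from the fits. DESeq2 1.42.0 and other scalings, filters and samples were alternatives; covariates for fragment length and GC slope were added after seeing the data. The scripts were tested on simulated counts. Tables and figures used Python 3.11.15 with pandas 2.3.3, numpy 2.4.6 and matplotlib 3.10.9.

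The members and lists were chosen with earlier results of these data known. The named genes were all members, the fixed genes of the lists, the highest and lowest mitochondrial synthetase, and the genes of most alike pattern. One of these genes is not reported here. ATF3, FARSA, AIMP1, RARS1, VARS1 and CARS2 were picked from the lists after their values were seen. Depth sets the precision: 3 libraries of under 10 mil counts are weaker than the rest.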

Additional observations from a re-analysis of the deposited data

Results flagged for a closer look

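For 6 members the slope over dose differed between triptolide and homoharringtonine, by edgeR's test of the difference itself, where 19.2% of all genes tested passed in the same direction. The slope of triptolide minus that of homoharringtonine, in log2 per 10-fold dose, was 0.90 for AARS1 (adjusted p = 2.34e-05), 0.83 for MARS1 (7.74e-06), 0.72 for YARS1 (3.03e-05), 0.51 for IARS1 (0.0276), 0.34 for WARS1 (0.00486) and 0.32 for NARS1 (0.0470). When 1 well of each dose was left out 3 or 4 members passed, AARS1, MARS1 and YARS1 in all 3 of these fits. Under the mitochondrial mRNA scaling none passed, and NARS1 (-0.17), WARS1 (-0.19) and IARS1 (-0.017) turned negative. AARS1 and MARS1 rose with dose under triptolide and fell with dose under homoharringtonine. None of the 4 member slopes that passed under triptolide did so in all 3 fits that left out 1 well of each dose. The triptolide slopes of AARS1 and MARS1 were negative under the mitochondrial mRNA scaling (-0.25 and -0.25). SARS1 (0.21) and CARS1 (-0.01) did not pass, with 95% intervals of -0.12 to 0.53 and -0.28 to 0.25.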

How the results depend on the processing

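Scaling to the mitochondrially encoded mRNAs had the most effect, with shifts of the median of all genes from -2.76 to 0.45 on the log2 scale. Under it the log2 fold changes turned negative, the cause not being tested, at triptolide 100 nM for NARS1 (-1.24), SARS1 (-1.48), WARS1 (-0.76), EPRS1 (-1.32), CARS1 (-1.46) and IARS1 (-1.45), at 1000 nM for GARS1 (-2.40), NARS1 (-1.78), WARS1 (-1.81), EPRS1 (-2.20), MARS1 (-2.08), IARS1 (-1.72) and YARS1 (-2.29), and at 10000 nM for GARS1 (-2.63), NARS1 (-1.97), WARS1 (-1.98), EPRS1 (-2.34), MARS1 (-2.22), IARS1 (-1.95) and YARS1 (-2.47). So did those at nilotinib 10000 nM for AARS1 (-0.43), GARS1 (-0.047), SARS1 (-0.24), WARS1 (-0.11), CARS1 (-0.33) and YARS1 (-0.39). Of the dose trends, those of triptolide turned for AARS1 (-0.25), GARS1 (-0.54), NARS1 (-0.36), EPRS1 (-0.46), MARS1 (-0.25) and YARS1 (-0.34), of pyrazolanthrone for AARS1 (-0.062), WARS1 (-0.081) and YARS1 (-0.069), of nilotinib for CARS1 (-0.46), MARS1 (-0.49) and YARS1 (-0.44), and of miglitol for GARS1 (-0.29) and NARS1 (-0.32). Triptolide against homoharringtonine turned at 100 nM for AARS1 (-1.49), NARS1 (-1.14), SARS1 (-1.40), WARS1 (-0.55), EPRS1 (-0.60), MARS1 (-1.22) and IARS1 (-1.33), at 1000 nM for AARS1 (-0.997), GARS1 (-2.12), NARS1 (-1.42), SARS1 (-2.36), WARS1 (-1.17), EPRS1 (-1.01), MARS1 (-0.99), IARS1 (-1.04) and YARS1 (-1.34), and at 10000 nM for AARS1 (-0.66), GARS1 (-2.21), NARS1 (-1.51), SARS1 (-2.02), WARS1 (-0.89), EPRS1 (-1.35), MARS1 (-0.57), IARS1 (-1.33) and YARS1 (-1.21). The difference of their trends turned for NARS1 (-0.17), WARS1 (-0.19) and IARS1 (-0.017). With library sizes alone, triptolide turned at 1000 nM for GARS1 (-0.40), MARS1 (-0.053) and YARS1 (-0.28), at 10000 nM for GARS1 (-0.41) and YARS1 (-0.22), and against homoharringtonine at 10000 nM for GARS1 (-0.20) and SARS1 (-0.019).

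Counts of members past the threshold also moved. Under mitochondrial mRNA scaling they were 10 at triptolide 100 nM and 10 against homoharringtonine at 100 nM, 2 at homoharringtonine 100 nM, 0 at pyrazolanthrone 10000 nM and 0 at nilotinib 10000 nM, with 7, 0, 3 and 8 for the trends of triptolide, pyrazolanthrone, nilotinib and miglitol and 0 for the difference of trends. With library sizes alone they were 1 and 2 for the trends of nilotinib and miglitol and 3 for the difference of trends, and with RLE factors 2 for the miglitol trend. DESeq2 gave 1 at pyrazolanthrone 100 nM, and 2 and 8 for the trends of nilotinib and miglitol. One fit over all wells gave 1 at MK-2206 10000 nM, and 4 and 0 for the trends of nilotinib and miglitol. Without libraries under 10 mil, triptolide 100 nM had 5. DMSO wells 1 to 3 only gave 8 at miglitol 10000 nM. Fragment length as a covariate, added after seeing the data, gave 0, 2 and 0 for the trends of pyrazolanthrone, nilotinib and miglitol and 5 for triptolide against homoharringtonine at 100 nM. The GC slope covariate, added likewise, gave 5 at triptolide 100 nM, 1 at nilotinib 100 nM, 1 at MK-2206 10000 nM, and 10, 1, 6 and 0 for the trends of homoharringtonine, pyrazolanthrone, nilotinib and miglitol. A required log2 fold change above 1 or below -1 left 0 members for triptolide at all 3 doses, 0, 3 and 2 for homoharringtonine at 100 nM, 1000 nM and 10000 nM, 0 for pyrazolanthrone and 0 for nilotinib at 10000 nM, and 1 for triptolide against homoharringtonine at 100 nM. In none of these was the cause tested. Shares of all genes that passed under these and the following settings are not given here.

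Leaving out 1 well of the compound at a time gave 2 to 5 members at triptolide 100 nM, 3 to 3 at homoharringtonine 100 nM, 6 to 7 at pyrazolanthrone 10000 nM, 0 to 3 at nilotinib 100 nM and 4 to 5 at nilotinib 10000 nM. For the trends the same-numbered well of every dose was left out together. They gave 0 to 2 for triptolide, 4 to 6 for homoharringtonine, 0 to 10 for pyrazolanthrone, 0 to 2 for nilotinib and 0 to 0 for miglitol. Triptolide against homoharringtonine at 100 nM, with 1 well of each compound left out, gave 2 to 5. The difference of trends, with 1 well of each compound and dose left out, gave 3 to 4. Of 54 pairs of a treated well and the same-numbered DMSO well, 22 had deviations correlated over 0.1 (-0.77 to 0.72). Same-numbered treated wells were not compared with each other, so these values do not settle whether replicate numbers pair the wells. The replicate block, with DMSO wells 1 to 3, gave 6 members at triptolide 100 nM and 8 at miglitol 10000 nM, and 0, 3 and 2 for the trends of triptolide, nilotinib and miglitol.

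Depth limits the members most in the shallow libraries of triptolide at 100 nM and 1000 nM and of DMSO.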
